A study of Culex quinquefasciatus with 12 samples.

Results

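A total of 73 genes of the *Culex quinquefasciatus* larval midgut had opposite responses to Bin toxin early and late in the exposure: 24 genes were higher in toxin-fed than in untreated larvae at 6 h and lower at 18 h, and 49 were lower at 6 h and higher at 18 h. Genes were selected on these early and late ratios: a gene was taken when its mean log2 ratio of toxin over untreated signal was at least 0.6 in size on both occasions with opposite signs, and when at least 1 of its spots was well above background in both channels on all 8 arrays of 6 h and 18 h. These thresholds were met by 73 of the 19751 genes on the array, or 73 of the 14287 genes that passed the brightness requirement; 30 further genes passed the thresholds without it. Because the 6 h and 18 h values chose the 73 genes, everything given for these genes at those times is a description without a test. Of their values, only those of the 12 h arrays, which played no part in the choice, were tested. The fit behind that test estimated the spread from all 12 arrays, so its SE and p-values also draw on the 6 h and 18 h arrays. The same fit also gave calls at 6 h and 18 h. These are given only for listed genes outside the 73 and for background sets of genes.

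Bin is a pair of proteins, BinA and BinB, that the bacterium *Lysinibacillus sphaericus* makes and that kills *Culex* larvae after binding to the midgut. Third-instar larvae of the JHB strain were starved for 3 h and fed BinA and BinB in equal molar amounts at 80 ng/ml, a dose labelled LC90, for 6, 12 or 18 h, while control larvae received no toxin and were taken at the same times. Larvae still alive were dissected, pools of at least 20 midguts gave the RNA, and untreated (Cy3) and toxin (Cy5) RNA shared an array, with 4 arrays per time point labelled as biological replicates and 12 arrays in all. The dyes were never swapped, so a dye effect of a gene adds to its ratio at every time, and each time had a slide of its own that carried its 4 arrays, so that slide and time cannot be told apart. The survivors of a lethal dose were measured, so the animals that had died by each time are not represented.

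The digestive enzymes of the labelled tissue were detected. In both channels, 63 of the 64 listed genes at 6 h and all 64 at the later times lay above background on the 4 arrays. They carried 2.82 to 3.54% of the summed untreated signal and 2.17 to 2.84% of the toxin signal. Between 72.8 and 88.5% of spots per array were well above background. All 16 listed fat body genes and all 6 listed muscle genes also lay above background at each time, so detection alone does not identify the tissue.

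The larval mosquito midgut digests and absorbs food, secretes enzymes, and lies against other tissues, among them the fat body, which makes the storage proteins of the haemolymph. Ribosomes are assembled in the nucleolus, where small RNA-protein particles modify the ribosomal RNA and assembly factors join proteins to it; growing and secreting cells depend on this work. Cuticle proteins and odorant-binding proteins are, by contrast, best known from the epidermis and the sense organs.

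**Figure D1:**
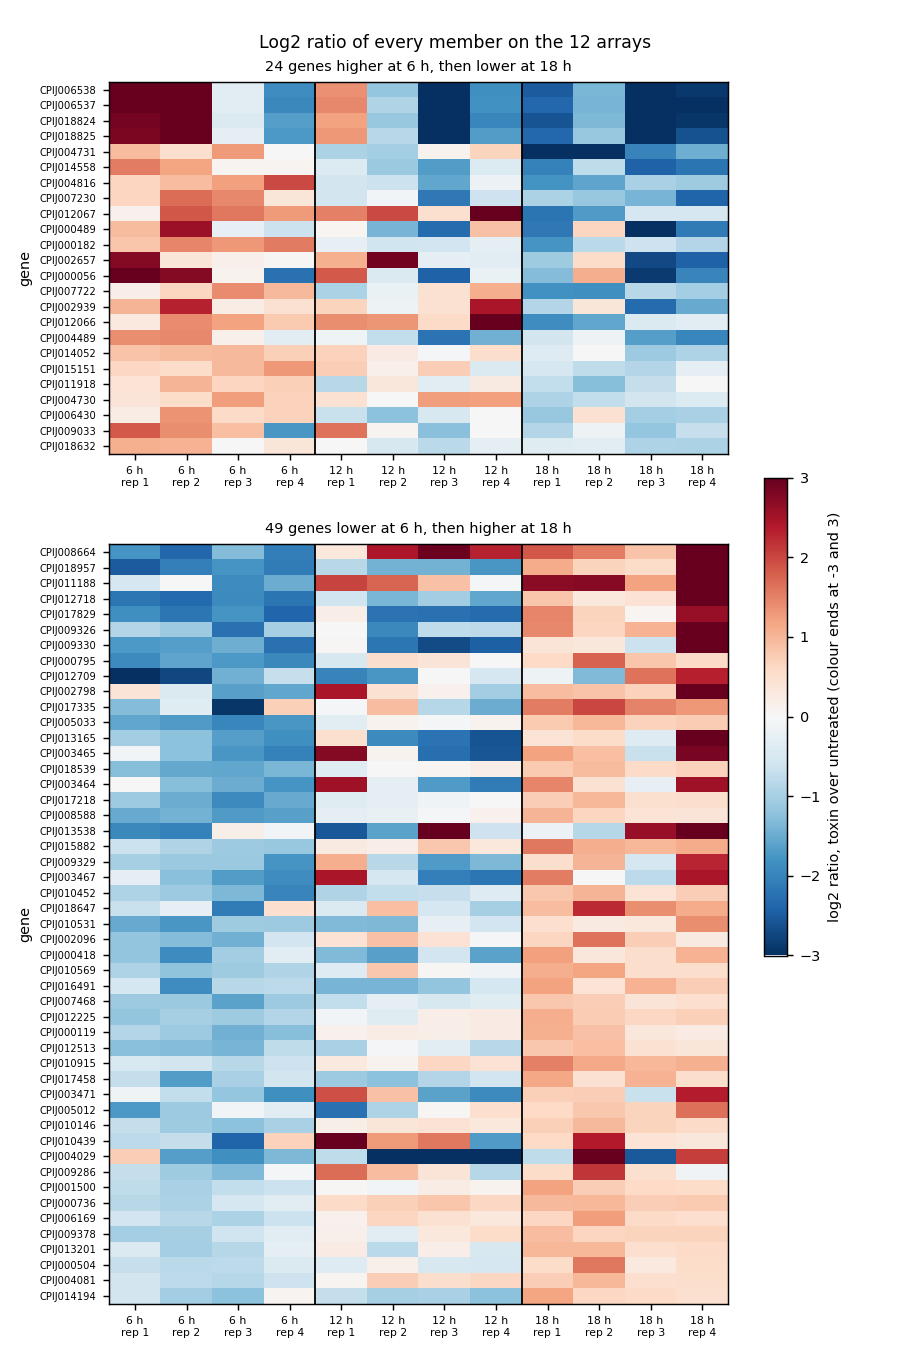
Log2 ratio of toxin over untreated signal (colour, cut at -3 and 3) for each of the 73 genes (rows) on each of the 12 arrays (columns, by time and replicate), with the 24 genes higher then lower above and the 49 genes lower then higher below. Several rows at the top change sign among the 4 arrays of 6 h, and 17 rows of the lower block reach 2 or more on replicate 4 at 18 h.

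In the 24 genes higher at 6 h and lower at 18 h, the median log2 ratio went from 0.87 at 6 h through -0.34 at 12 h to -1.24 at 18 h. In the 49 genes of the opposite direction it was -1.03, -0.25 and 0.81. The median over all 19751 genes lay at 0.02, 0.03 and 0.00. Among the 24 genes 7 are named only as hypothetical proteins, and among the 49 genes 16 are named only as hypothetical or predicted proteins and 8 have an identifier without a name. The spread between arrays was larger in the first direction, with a median SD of 0.69 early and 0.77 late (n = 4), than in the second, with 0.34 and 0.49. All 4 arrays at 6 h lay on one side of 0 and all 4 at 18 h on the other in 12 of the 24 genes and in 33 of the 49, patterns that 1.41% and 1.87% of all genes showed. The 6 h arrays did not overlap the 18 h arrays in 13 of 24 and 40 of 49 genes, against 17.6% of all genes, and the rule itself favours such genes.

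The choice stood close to its thresholds for many genes. Just inside lay CPIJ009033, arylphorin subunit C223, at 0.60 and -0.72, and just outside lay CPIJ012400, histone H1, at 0.59 and -1.15. In the other direction CPIJ007468, a conserved hypothetical protein, was just inside at -1.23 and 0.61, and CPIJ013544 was just outside at -0.68 and 0.60. Leaving out each of the 8 arrays in turn, 6 of the 24 genes and 19 of the 49 still met the rule every time. Without replicate 2 at 6 h only 11 of the 24 were kept, and without replicate 2 or replicate 4 at 18 h 38 of the 49 were kept.

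Genes for building ribosomes were among those lower and then higher. Of the 29 listed genes for ribosome assembly and RNA processing, 5 belonged to the 49 and none to the 24. They were 3 subunits of the H/ACA particle, which converts uridine to pseudouridine in ribosomal RNA (CPIJ000795, H/ACA ribonucleoprotein complex subunit 4; CPIJ010452, subunit 3; CPIJ005033, nucleolar protein NHP2), together with CPIJ017218, the lupus la protein, which binds the ends of newly made RNA polymerase III transcripts, and CPIJ012225, a cell growth-regulating nucleolar protein.

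Subunit 4, the enzyme of the particle, had log2 ratios of -1.91, -1.58, -1.72 and -1.93 at 6 h, of -0.47, 0.54, 0.38 and 0.01 at 12 h, and of 0.61, 1.77, 0.84 and 0.57 at 18 h. NHP2 had -1.55, -1.69, -1.96 and -1.74 at 6 h, -0.32, 0.10, -0.03 and 0.11 at 12 h, then 0.79, 0.99, 0.70 and 0.76 at 18 h. Both genes were thus low on every 6 h array, near 0 at 12 h and above 0 on every 18 h array. Subunit 3 lagged at 12 h, with -0.92, -1.09, -1.34 and -1.98 at 6 h, -0.90, -0.73, -0.69 and -0.39 at 12 h, then 0.81, 1.01, 0.41 and 0.73 at 18 h. Its 12 h mean of -0.68 ± 0.15 (SE) missed the size needed for a call.

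The other listed members behaved alike. The lupus la gene measured -1.09, -1.48, -1.91 and -1.50 at 6 h and 0.73, 0.99, 0.49 and 0.52 at 18 h, with a 12 h mean of -0.19. The nucleolar growth regulator measured -1.18, -0.99, -1.06 and -0.87 at 6 h and 1.09, 0.77, 0.62 and 0.72 at 18 h, with a 12 h mean of 0.00. Neither gene was called at 12 h.

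Outside the list, and picked after their values were seen, 4 further members have names tied to the same work in other organisms. CPIJ008588, mRNA turnover protein 4, is a large-subunit assembly factor in yeast and measured -1.51, -1.41, -1.70 and -1.62 at 6 h and 1.01, 0.64, 0.42 and 0.39 at 18 h. CPIJ001500, WD repeat protein 12, is a large-subunit assembly factor in mammals and went from a mean of -0.78 ± 0.14 (SD, n = 4) to 0.77 ± 0.30. CPIJ006169, WD repeat protein 74, had means of -0.75 ± 0.18 and 0.74 ± 0.34, and CPIJ002096, importin-7, a nuclear import receptor for ribosomal proteins among other cargo, had -1.12 ± 0.38 and 0.82 ± 0.57. In all 9 genes the 4 arrays of 6 h lay below 0 and the 4 of 18 h above it. None of the 9 was called at 12 h, and 5 of the 9 met the rule without any of the 8 arrays.

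**Figure D2:**
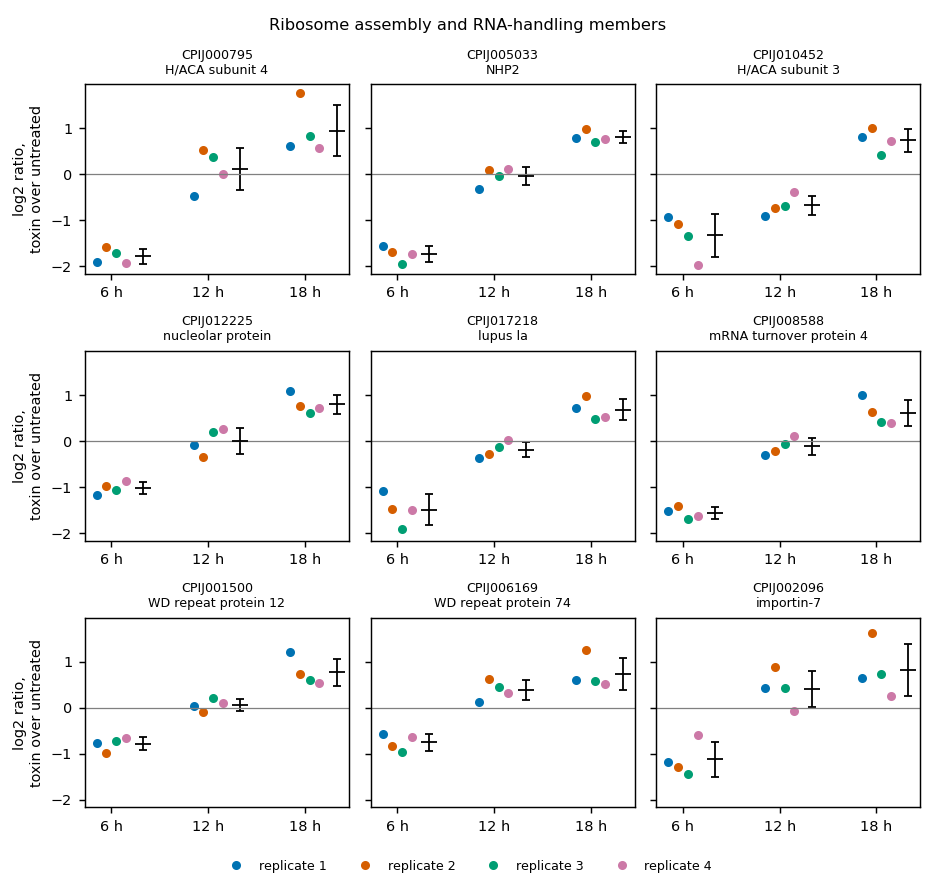
Log2 ratio of toxin over untreated signal (y axis) at 6, 12 and 18 h (x axis) for 9 genes of ribosome assembly and RNA handling; coloured points are the 4 replicate arrays, and black marks are the mean ± SD. All 6 h points lie below 0 and all 18 h points above it, and the 12 h points lie between -0.90 and 0.88.

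The ribosome list as a whole leaned the same way without its members. Among the 24 listed genes that were not members, the median log2 ratio went from -0.53 through 0.09 to 0.54 over the 3 times. The 6 h arrays called 11 of these 24 lower and 2 higher, the 12 h arrays 3 lower and 10 higher, and the 18 h arrays none lower and 8 higher. Over all genes the shares called lower and higher were 4.85% and 3.57% in the 6 h arrays, 8.5% and 8.44% in the 12 h arrays, and 4.59% and 4.91% in the 18 h arrays. The names behind the list come from a table of genes that the study had called on these same arrays, so its counts are no independent evidence of direction. That table held 3715 genes that were not members, with larger shares called than over all genes. Of these, 721 were called lower and 477 higher in the 6 h arrays. The 12 h arrays called 1073 lower and 689 higher, and the 18 h arrays 519 and 393.

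Values of some further genes lower and then higher follow, and all but the last named had their 8 arrays on their own sides of 0. CPIJ018539, a wd-repeat protein, measured -1.28, -1.53, -1.56 and -1.38 at 6 h and 0.77, 0.96, 0.58 and 0.69 at 18 h. CPIJ010915, an arginine n-methyltransferase, went from a mean of -0.61 ± 0.16 (SD, n = 4) to 1.18 ± 0.23. CPIJ012513, tetratricopeptide repeat protein 4, an Hsp90 co-chaperone in mammals, was the single member among 38 listed chaperones and went from -1.17 ± 0.28 to 0.63 ± 0.27. Among the other 37 chaperones the 6 h arrays called 20 lower and 4 higher and the 18 h arrays none lower and 2 higher, with medians of -0.85 and -0.12, so the list returned toward 0 without crossing it. CPIJ015882, a hypothetical protein, measured -0.63, -0.91, -1.08 and -1.14 at 6 h and 1.58, 1.09, 0.99 and 1.10 at 18 h. CPIJ000119, kelch domain-containing protein 4, measured -0.89, -1.09, -1.44 and -1.28 at 6 h and 1.08, 0.88, 0.34 and 0.25 at 18 h. CPIJ010569 and CPIJ010146, conserved hypothetical proteins, had means of -1.02 and 0.83 and of -0.999 and 0.74. CPIJ009286, named as the RNA helicase vasa, a germ line protein in *Drosophila*, lay below 0 on every 6 h array and had 18 h values of 0.55, 2.15, 0.47 and -0.11.

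The 49 also held 2 of 6 listed odorant-binding proteins and 2 of 24 listed cuticle proteins, with very different arrays at 18 h. The 4 odorant-binding proteins that were not members had median log2 ratios above 0 at 6, 12 and 18 h, at 0.91, 0.83 and 0.37. Both genes named odorant-binding protein 56e, secreted carriers of small molecules, were low on every 6 h array: CPIJ018957 measured -2.51, -2.05, -1.78 and -2.10, and CPIJ012718 measured -2.17, -2.33, -1.91 and -2.18. At 18 h they measured 1.10, 0.68, 0.54 and 3.51, and 0.84, 0.33, 0.43 and 3.37. The first 3 arrays were modestly above 0 and replicate 4 was far above them. Without replicate 4 the 18 h mean of CPIJ012718 falls below the 0.6 of the rule, and that of CPIJ018957 stays above it. At 12 h both were called lower in the limma fit, at -1.36 ± 0.37 (SE; adjusted p = 0.0099) and -1.15 ± 0.38 (adjusted p = 0.026). Both calls were lost with normexp (offset 50), with refitted normexp and in the deposited log2 ratios, where the 2 genes stood between -0.66 and -0.40, and the second was also lost without replicate 2, 3 or 4 at 12 h. The pair run so closely together that they may share hybridisation as near-identical copies, which the files do not settle.

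CPIJ009326, endocuticle structural glycoprotein SgAbd-4, a protein first described from locust cuticle, measured -0.88, -1.10, -2.23 and -0.99 at 6 h and 1.44, 0.64, 1.05 and 4.27 at 18 h. CPIJ002798, a cuticle protein, measured 0.38, -0.42, -1.64 and -1.57 at 6 h and 0.92, 0.85, 0.68 and 4.67 at 18 h, and its 6 h values span 0. CPIJ013165, named 16 kDa salivary peptide, stood at 0.41, 0.56, -0.39 and 3.75 at 18 h. Only replicate 4 lifts its 18 h mean of 1.08 above the threshold.

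Of the 49 genes, 17 reached 2 or more on replicate 4 at 18 h, and in 11 of these the mean of the other 3 arrays was below 0.6. Runs of neighbouring identifier numbers were among them. CPIJ003464, CPIJ003465, CPIJ003467 and CPIJ003471, all conserved hypothetical proteins, lay between 2.36 and 2.84 on replicate 4 and between -0.78 and -0.25 on replicate 3, and at 12 h between 1.93 and 2.76 on replicate 1 but between -2.56 and -1.92 on replicate 4. CPIJ009329 and CPIJ009330, next in number to the endocuticle gene, measured 2.29 and 3.75 on replicate 4 at 18 h and -0.51 and -0.64 on replicate 3. None of the 4 genes of the first run kept 1 sign within each time.

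The 24 listed cuticle proteins, of which 2 were members, also differed between arrays. The log2 ratio of their summed signal was 0.07, -0.42, -1.27 and -1.46 on the 4 arrays of 6 h, 2.00, -0.36, -0.74 and -1.18 at 12 h, then 0.73, 1.57, -0.23 and 1.73 at 18 h. At 18 h replicates 2 and 4 were thus both high, where in the 2 members replicate 4 stood alone. Their median went from -0.65 through -0.41 to 0.37, with 21 of 24 below 0 early and 21 of 24 above 0 late, and 22 or 23 of them lay above background on the 4 arrays of each time. Of the 22 that were not members, 1 was called lower in the 6 h arrays and none higher in the 18 h arrays. The part of epidermal RNA in these ratios was not tested.

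Other secreted proteins among the 49 varied from array to array. CPIJ013538, ficolin-1, a lectin with a fibrinogen-like domain, measured -1.93, -2.02, 0.18 and -0.08 at 6 h and -0.17, -0.86, 2.61 and 3.18 at 18 h. CPIJ004029, venom allergen 5, a secreted protein named after a wasp allergen, measured 0.73, -1.65, -1.85 and -1.35 at 6 h, -0.76, -3.16, -3.32 and -3.23 at 12 h, then -0.77, 3.74, -2.52 and 2.08 at 18 h. In both genes the 6 h and 18 h arrays overlapped, and the venom allergen gene owed its place to 2 of the 4 arrays at 18 h.

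A pair of genes named 4-coumarate-CoA ligase 1, an enzyme family that joins acids to coenzyme A, switched late. CPIJ016491 measured -0.54, -1.86, -0.82 and -0.79 at 6 h, -1.39, -1.39, -1.18 and -0.53 at 12 h, then 1.22, 0.41, 1.03 and 0.74 at 18 h. CPIJ017458 measured -0.72, -1.68, -0.97 and -0.55, then -1.10, -1.24, -0.89 and -0.58, then 1.17, 0.45, 1.03 and 0.52. Both were still below 0 on every array at 12 h and called lower, at -1.12 ± 0.21 (SE) with an adjusted p of 0.00091 and at -0.95 ± 0.18 with an adjusted p of 0.0011. Both met the rule without any 1 of the 8 arrays, and as likely copies of each other they may share signal.

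The 4 genes with the widest gaps between times among the 24 higher and then lower were larval serum protein genes, and their 6 h arrays disagreed. The fat body makes these hexamers and releases them into the haemolymph as an amino acid store for metamorphosis. Of 16 listed fat body storage and lipid carrier proteins, 6 were members: 5 genes named larval serum protein 1 beta chain and arylphorin subunit C223. CPIJ006538 measured 2.99, 3.64, -0.34 and -1.87 at 6 h, 1.38, -1.16, -3.66 and -1.83 at 12 h, then -2.50, -1.38, -3.35 and -2.89 at 18 h. Its 6 h mean of 1.10 therefore joined 2 arrays far above 0 and 2 below it, with an SD of 2.64, while all 4 arrays at 18 h were below 0.

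CPIJ006537, CPIJ018824 and CPIJ018825 followed CPIJ006538 almost exactly. On the 4 arrays of 6 h the 4 genes lay between 2.82 and 3.01, between 3.36 and 3.65, between -0.44 and -0.30, and between -1.94 and -1.66. At 18 h they lay between -3.37 and -1.15. Probes of such near-identical family members may read the same transcripts, so the 4 genes are not 4 separate observations. CPIJ000056, the fifth gene of that name, measured 3.23, 2.76, 0.10 and -2.24 at 6 h and -1.30, 1.10, -2.87 and -1.98 at 18 h, and CPIJ009033, arylphorin, measured 1.84, 1.40, 0.90 and -1.74, and -0.87, -0.15, -1.17 and -0.69. In all 6 genes the 6 h and 18 h arrays overlapped, none was called at 12 h, and none met the rule in every leave-one-out of the 8 arrays. Some spots of arylphorin were saturated in both channels, which narrows its ratios.

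**Figure D3:**
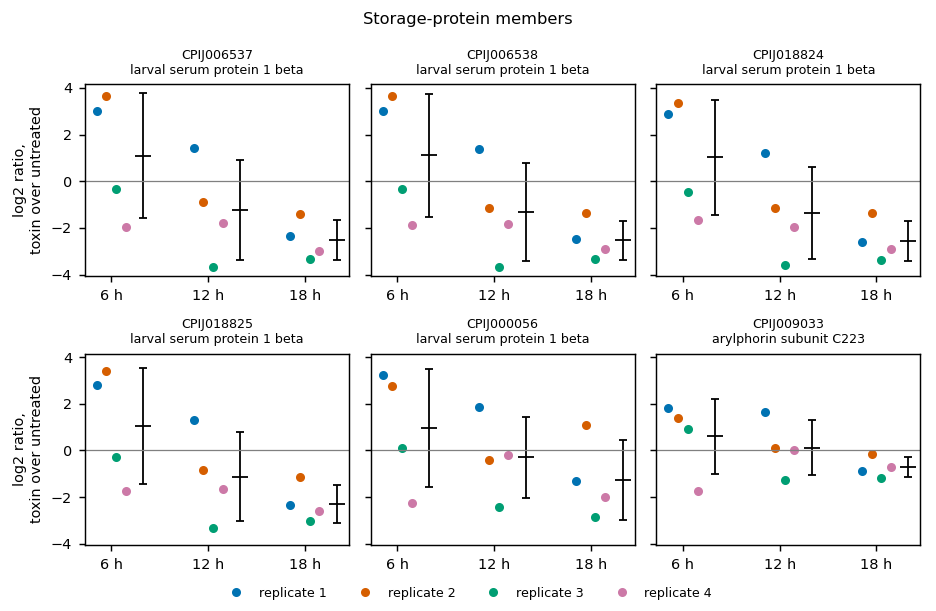
Log2 ratio of toxin over untreated signal (y axis) at 6, 12 and 18 h (x axis) for the 6 storage-protein genes; coloured points are the 4 replicate arrays, and black marks are the mean ± SD. At 6 h replicates 1 and 2 lie above 0 and replicate 4 below it in every panel, and at 18 h all points but 1 lie below 0.

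The fat body list followed these genes array by array, also in its 10 genes that did not switch. Their median was 0.52, 0.89, -0.61 and -1.58 on the 4 arrays of 6 h, 0.46, -0.35, -2.69 and -1.22 at 12 h, then -1.64, -0.39, -2.29 and -1.997 at 18 h. All 16 listed genes lay above background on the 4 arrays of each time. Their summed signal made up 0.13 to 0.18% of the untreated total early and 0.44 to 0.55% late, against 0.075 to 0.52% and 0.16 to 0.47% of the toxin total. The part of fat body RNA carried along with the midguts was not tested, and in pooled tissue fewer cells of a type cannot be told apart from less RNA per cell.

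Apart from the storage proteins, the genes higher and then lower that have a functional name were mostly enzymes and transporters with their own courses. Another 7 are named only as hypothetical proteins. CPIJ014558, the nitrilase and fragile histidine triad fusion protein NitFhit, measured 1.54, 1.18, 0.09 and 0.09 at 6 h and -2.03, -0.76, -2.42 and -2.19 at 18 h. CPIJ007230, regucalcin, a calcium-binding protein, measured 0.63, 1.67, 1.44 and 0.37 at 6 h and -0.96, -1.15, -1.40 and -2.41 at 18 h. Both had all 8 arrays on their own sides of 0, and both were already called lower at 12 h, at -0.90 ± 0.31 (SE) with an adjusted p of 0.031 and at -0.86 ± 0.32 with an adjusted p of 0.045. CPIJ004489, a potassium-dependent sodium-calcium exchanger that carries calcium out of cells, was also called lower at 12 h, at -1.14 ± 0.38 with an adjusted p of 0.029, although its 6 h arrays of 1.39, 1.44, 0.15 and -0.34 were not all above 0. Of 14 alternative settings, 4 lost the call of NitFhit, 7 that of regucalcin and 3 that of the exchanger, and without replicate 3 at 12 h all 3 calls were lost, at -0.64, -0.43 and -0.77.

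CPIJ000182, N-acetyl neuraminate lyase, which splits sialic acid, had the highest 6 h mean of the 24, with 0.84, 1.46, 1.29 and 1.56, and measured -1.76, -0.82, -0.61 and -0.88 at 18 h. CPIJ004816, a conserved hypothetical protein, measured 0.65, 0.92, 1.22 and 1.97 at 6 h and -1.78, -1.59, -0.98 and -1.07 at 18 h. Both genes crossed 0 between 6 h and 12 h, at 12 h means of -0.42 and -0.74 that were not called.

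Neighbours in number behaved as a pair and switched late. CPIJ012066, a sodium/Chloride dependent amino acid transporter, measured 0.28, 1.42, 1.20 and 0.80 at 6 h, 1.39, 1.33, 0.59 and 3.29 at 12 h, then -1.86, -1.57, -0.43 and -0.31 at 18 h. CPIJ012067, a conserved hypothetical protein, measured 0.14, 1.86, 1.58 and 1.27, then 1.51, 1.98, 0.47 and 3.64, then -2.20, -1.70, -0.51 and -0.50. Their 12 h means of 1.65 ± 0.37 (SE) and 1.90 ± 0.44 were called higher, with adjusted p of 0.0034 and 0.0038, and exceeded their own 6 h means of 0.93 and 1.21. Of the 24 genes 8, and of the 49 genes 7, had another member of the same direction within 5 identifier numbers.

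Glutathione-s-transferase theta genes, which attach glutathione to reactive compounds, made smaller crossings. CPIJ014052 measured 0.87, 0.96, 0.98 and 0.73 at 6 h and -0.39, -0.01, -1.08 and -0.94 at 18 h, and CPIJ018632 measured 1.07, 1.03, 0.02 and 0.37 and then -0.37, -0.32, -0.94 and -0.95. CPIJ015151, adenylate cyclase, which makes cyclic AMP, measured 0.62, 0.55, 0.97 and 1.29 and then -0.49, -0.77, -0.87 and -0.28. None of these 3 was called at 12 h, and none met the rule in every leave-one-out.

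The conserved hypothetical proteins CPIJ007722 and CPIJ011918 also had all arrays on their own sides, with means of 0.80 and -1.38, and of 0.70 and -0.69. CPIJ004730 measured 0.38, 0.56, 1.25 and 0.69 at 6 h and -0.93, -0.75, -0.55 and -0.42 at 18 h. However, saturation of its toxin spots affected 3 of the 4 early arrays and all 4 late ones. Its toxin signal can therefore only be understated, and these ratios are not read as its fold changes. The true 18 h ratio may be higher than measured, so that its lower level at 18 h is not established; it is 1 of the 12 genes with all arrays on their own sides, which are 11 without it. The remaining named proteases were divided among their arrays: CPIJ002657, proclotting enzyme, measured 2.74, 0.37, 0.14 and 0.04 at 6 h and -1.07, 0.55, -2.70 and -2.42 at 18 h. CPIJ002939, a metalloproteinase, and CPIJ006430, oviductin, likewise each had 1 array above 0 at 18 h, at 0.36 and 0.46.

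The 12 h arrays asked where the genes stood between the choosing times. Of the 24 genes higher then lower, 2 were called higher (8.33%) and 3 lower (12.5%) at 12 h, against 8.44% and 8.5% of all genes, shares near that background. Of the 49 genes lower then higher, 2 were called higher (4.08%) and 11 lower (22.4%) against the same 8.44% and 8.5%, or 8.97% and 9.54% of the bright genes. Both backgrounds hold genes of any 6 h ratio, whereas the 49 were chosen as lower at 6 h, so neither is matched to them. The 11 also count both odorant-binding genes and both ligases, pairs that may share signal. A call needed an adjusted p under 0.05 over 19751 genes and a log2 ratio of at least 0.75 in size, in a limma fit of all 12 arrays with 9 residual degrees of freedom. A fit of the 12 h arrays alone called 2 higher and 2 lower of the 24, and 2 higher and 13 lower of the 49. The count of 11 fell to 3 with another background correction and to 4 in the deposited log2 ratios, and to 6 without replicate 2 and 7 without replicate 3 at 12 h. Without replicate 3 at 12 h none of the 3 calls of the first direction was left, and the 2 higher calls of the second became 1 without replicate 1, 2 or 3.

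Besides the genes above, those called lower at 12 h among the 49 were mostly unnamed. CPIJ017829, a predicted protein, measured 0.20, -2.21, -2.24 and -2.31 at 12 h, and CPIJ000418, a conserved hypothetical protein, measured -1.32, -1.63, -0.57 and -1.61. The largest fall was that of venom allergen 5, at -2.62 ± 0.81 (SE) with an adjusted p of 0.020. CPIJ009330 followed at -1.82 ± 0.58 with an adjusted p of 0.021. CPIJ010531, an ABC1 family protein, stood at -0.87 ± 0.22 with an adjusted p of 0.0061, and it is the member with an outlier-flagged spot, left out here. The salivary peptide, at -1.57 ± 0.58, and CPIJ014194, at -0.97 ± 0.18, complete the 11. Of 14 alternative settings, 5 lost the call of venom allergen 5, 4 that of CPIJ009330, 2 that of CPIJ017829, 7 that of CPIJ010531, 8 that of the salivary peptide and 3 that of the ligase CPIJ017458. Leaving out replicate 2, 3 or 4 at 12 h was among them for venom allergen 5, at -2.44 to -2.38, for CPIJ009330, at -1.70 to -1.53, and for the salivary peptide. The calls of CPIJ000418, CPIJ014194 and the ligase CPIJ016491 were kept in all 14.

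The 2 genes of this direction already called higher at 12 h were conserved hypothetical proteins. CPIJ008664 measured -1.77, -2.36, -1.29 and -2.07 at 6 h, 0.32, 2.42, 2.94 and 2.32 at 12 h, then 1.86, 1.55, 0.86 and 3.07 at 18 h, and its 12 h mean of 2.00 ± 0.39 (SE) had an adjusted p of 0.0013. CPIJ011188 measured -0.51, -0.00, -1.89 and -1.49 at 6 h, 2.02, 1.76, 0.89 and -0.04 at 12 h, then 2.70, 2.74, 1.21 and 3.40 at 18 h, and its 12 h mean of 1.16 had an adjusted p of 0.030. This call was lost in 5 of the 14 alternative settings, among them without replicate 1, 2 or 3 at 12 h, at 0.87, 0.96 and 1.25, whereas that of CPIJ008664 was kept in all 14. CPIJ008664 had completed its switch by 12 h, and CPIJ011188 reached the highest 18 h mean of the 49, 2.51.

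**Figure D4:**
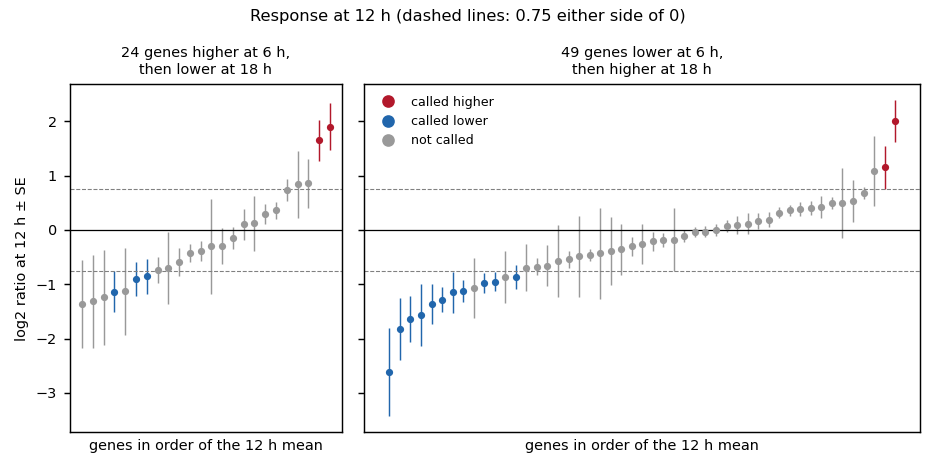
Log2 ratio at 12 h ± SE from the limma fit (y axis) for each gene in order of its value (x axis), with the 24 genes higher then lower on the left and the 49 genes lower then higher on the right; red marks genes called higher, blue marks genes called lower, and dashed lines stand at 0.75 either side of 0. Most genes of both directions lie near or below 0, and 11 genes on the right are called lower.

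The 12 h mean lay between the 6 h and 18 h means in 19 of the 24 genes and in 41 of the 49. It was nearer the 6 h mean in 10 and the 18 h mean in 14 of the 24, and nearer the 6 h mean in 27 and the 18 h mean in 22 of the 49. In 4 and 6 genes it lay beyond the 6 h mean, and in 1 and 2 beyond the 18 h mean. The crossing thus fell on either side of 12 h in both directions, with 9 of the 24 and 18 of the 49 above 0 at 12 h against 52.2% of all genes.

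Levels in the separate channels describe how the untreated and toxin signals differed between the times, each of which had its own slide. The level is the mean log2 signal of a gene, over all its spots, minus the 75th percentile of genes in that channel of the array. The untreated level was higher at 18 h than at 6 h in 24 of 24 genes that were higher then lower, by a median of 2.12, while the toxin level was higher in 12 and lower in 12, with a median difference of -0.01. The untreated difference was the larger of the 2 in size in 23 of these 24 genes. It was higher by 1 or more in 22 of the 24. Among all bright genes the untreated level was higher at 18 h in 40% and by 1 or more in 3.02%, and the toxin level was higher in 45.7%.

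The opposite held in the 49 genes lower then higher. Their untreated level was lower at 18 h in 49 of 49, by a median of 1.21, and lower by 1 or more in 34 of 49, against 16.5% of bright genes. Their toxin level was higher in 38 of 49, with a median difference of 0.81, and higher by 1 or more in 20 of 49, against 1.88% of bright genes. The 20 include CPIJ010531, whose outlier-flagged spot is kept in the levels. It had the largest toxin difference, 1.86, with toxin levels at 18 h of -1.96, -2.09, 1.66 and -0.86. The counts of 20 and 32 in this paragraph may each depend on that spot. In this direction the untreated and toxin levels differed in opposite ways in 38 genes, and the untreated difference was the larger in size in 32. The ratios that chose the genes were made of these levels, and each time had its own slide, so these differences between times are a description.

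**Figure D5:**
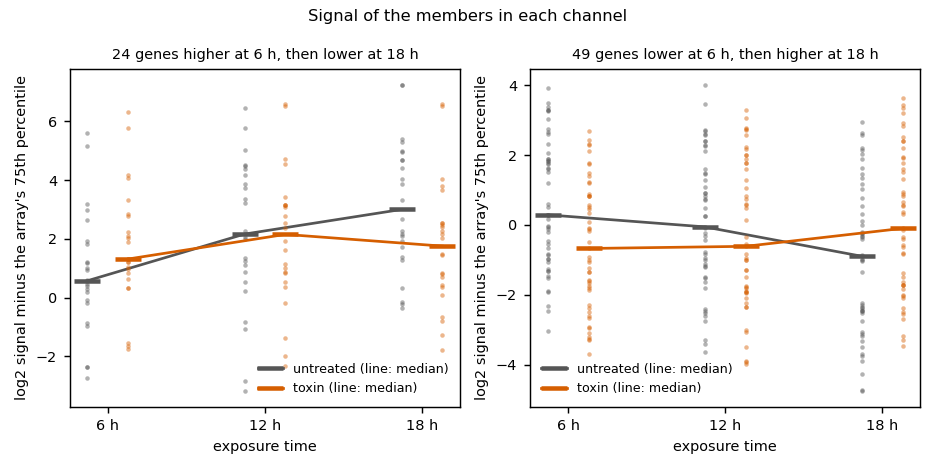
Log2 signal minus the 75th percentile of genes on the array (y axis) at 6, 12 and 18 h (x axis) in the untreated (grey) and toxin (orange) channels; points are genes, each the mean of 4 arrays, and lines join the medians. In the 24 genes the untreated median goes from 0.57 to 3.00 and the toxin median from 1.31 to 1.75; in the 49 genes the 2 lines cross between 12 h and 18 h.

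Single genes showed the same 2 kinds of course. At 6, 12 and 18 h the untreated level of CPIJ006538 was 1.01 ± 0.12 (SD, n = 4), 4.47 ± 0.27 and 4.99 ± 0.05, and its toxin level was 2.11 ± 2.75, 3.17 ± 1.87 and 2.47 ± 0.81. For regucalcin the untreated level was -0.20 ± 0.14, 1.36 ± 0.07 and 2.16 ± 0.09, and the toxin level stayed between 0.52 and 0.83. In both genes the untreated level was higher at each later time, whereas the toxin level of CPIJ006538 was highest at 12 h, with wide SDs, and that of regucalcin at 6 h. The hypothetical protein CPIJ004816 was the exception among the 24, with an untreated level of 3.00 and 3.87 and a toxin level of 4.18 and 2.52 at 6 h and 18 h.

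Among the ribosome genes both channels took part. NHP2 had untreated levels of 3.48 ± 0.07, 2.60 ± 0.08 and 2.03 ± 0.12 (SD, n = 4) and toxin levels of 1.74 ± 0.21, 2.58 ± 0.22 and 2.84 ± 0.16 at 6, 12 and 18 h. For the lupus la gene the untreated level went from 3.93 ± 0.06 to 2.95 ± 0.09 and the toxin level from 2.44 ± 0.37 to 3.64 ± 0.27. In the 9 genes together the untreated difference between 18 h and 6 h ran from -2.20 to -0.45 and the toxin difference from 0.02 to 1.31, and the toxin difference was the larger in size in 4. In all 4 odorant-binding and cuticle genes the untreated difference was the larger in size. The 2 cuticle genes had opposite differences in the 2 channels, as the ribosome genes did, at -2.12 and 1.04 for CPIJ009326. Both odorant-binding genes instead had lower levels at 18 h in both channels, at -3.78 and -0.21 for CPIJ018957.

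The untreated channel varied far less among the 4 arrays of a time than the toxin channel. In the 24 genes the median SD of the untreated level was 0.15 early and 0.08 late, against 0.76 and 0.76 for the toxin level, and 0.09 and 0.14 against 0.37 and 0.47 in the 49. Over all genes it was 0.14 and 0.13 against 0.25 and 0.25. The toxin SD was the larger in 23 and 22 of the 24 genes and in 48 and 45 of the 49 at these times, and in 74.7% and 75.8% of all genes. Whether the untreated RNA of a time was 1 pool or 4 separate pools is not given in the sources used here; if it was 1 pool, the p-values leave out the spread among untreated larvae.

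Several lists held no member. None of 21 listed endoplasmic reticulum folding genes, 31 carbohydrate enzymes, 16 sugar transporters, 90 cytochrome P450s, 64 digestive enzymes, 6 muscle proteins or 11 peptidoglycan recognition proteins and serpins switched direction by the rule. Members were rare, at 0.37% of all genes. Of the 3780 named genes behind the lists, 24 and 41 were members in the 2 directions, so an empty list says little about its family. The endoplasmic reticulum genes stayed below 0 at all times, with medians of -1.004, -1.37 and -0.36. The digestive enzymes had medians of -0.21, -0.41 and -0.80, and the P450s -0.09, -0.54 and -0.57, so both went further below 0 with time. The 4 odorant-binding proteins that were not members had medians of 0.91, 0.83 and 0.37.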

How the data were processed

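Each of the 12 two-colour arrays was deposited as a scanner file with intensity values of the Cy3 and Cy5 channels; the authors' scanner software (Agilent Feature Extraction 11.5.1.1) had subtracted background and normalized the dyes in the processed signals used here. Per the study's methods, the deposited log2 ratios came from limma after background correction and loess within arrays; they correlated with the scanner ratios at r of 0.50 to 0.91 on the 12 arrays, which fixes their direction, and serve as an alternative. No column of the authors' own comparisons was used.

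Control spots (1417 of 45220 per array) were left out. The log2 of processed Cy5 over Cy3 intensity was averaged over the 2 to 6 spots of a gene. Genes were chosen on all spots. The log2 ratios given leave out outlier-flagged spots, which touched 1 of the 73 genes, CPIJ010531. The channel levels keep all spots. The mean at 12 h was tested against 0 with limma 3.58.1 (R 4.3.3) on all 12 arrays, with a mean per time point, empirical Bayes and Benjamini-Hochberg adjustment over 19751 genes. The study's methods give the adjusted p of 0.05 and the log2 size of 0.75. On simulated data for the 12 h comparison, run on 19751 genes, 56 of 67 genes changed by a log2 of 1, 64 of 67 changed by 1.5 and 65 of 66 changed by 2 were recovered, with 3 false calls. The simulated noise was normal and independent between genes, and the changed genes were drawn at random, so these rates need not hold for the 73.

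The members, the 12 gene lists and the choice of measure were made with earlier results of these data known. Named genes are, per direction, the 12 largest switches with all 8 arrays on their own sides, list members, the 3 largest rises and falls called at 12 h, and genes at the threshold; CPIJ004731, CPIJ000489 and other genes outside this rule were named after their values were seen. Gene names come from a supplementary table of the study with 3780 genes called on these samples; 8 of the 73 genes have an identifier only. Alternatives changed the background correction, normalization, spot and probe filters, the fit, and left out arrays in turn. Precision is limited by 4 arrays per time point. Sequences, genome positions and probe positions are not used here. The labels give a rearing temperature of 27 °C.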

Additional observations from a re-analysis of the deposited data

Results flagged for a closer look

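In 12 of the 24 genes higher then lower and 33 of the 49 genes lower then higher, all 4 arrays at 6 h lay on one side of 0 and all 4 at 18 h on the other; the difference between the times was not tested, since the times chose the genes. Among 38 named genes at 3 time points (114 groups of 4 arrays), 6 groups held an array far from the other 3, where chance gives about 1 in 20.

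On replicate 4 at 18 h, the odorant-binding protein gene CPIJ012718 stood at 3.37 with the others between 0.33 and 0.84, and the cuticle protein gene CPIJ002798 at 4.67 with the others between 0.68 and 0.92. On replicate 1 at 12 h, CPIJ017829 stood at 0.20 with the others between -2.31 and -2.21, and venom allergen 5, CPIJ004029, at -0.76 with the others between -3.32 and -3.16. On replicate 3 at 6 h, CPIJ009326 stood at -2.23 with the others between -1.10 and -0.88, and CPIJ007468 at -1.61 with the others between -1.12 and -1.09.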

How the results depend on the processing

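The counts moved with the background correction, and the cause was not tested. With normexp (offset 50) and loess, refitted normexp and loess, and the deposited log2 ratios, the 49 genes lower then higher had 3, 6 and 4 called lower at 12 h in place of 11, and 1 called higher in place of 2 with the first and the last. The 24 genes had 1 called lower in place of 3 with the first and the last and with the brightest spot of each gene. All genes called at 12 h numbered 1471, 1855 and 1624 in place of 3344, at 6 h 814, 1076 and 853 in place of 1662, and at 18 h 598, 831 and 687 in place of 1875. Under the deposited log2 ratios 15 genes met the rule in the first direction in place of 24, and 13 of these were members. In the second direction 40 met it in place of 49, and 28 of these were members. With normexp (offset 50) and loess, 13 and 25 of the members were kept. At a threshold of 0.75 the 2 directions held 13 and 31 genes. In every setting at the 0.6 threshold, 6 of the 24 genes and 13 of the 49 met the rule. Without the brightness filter 75 met it in the second direction. Leaving out 1 array at a time gave 13 to 36 genes in the first direction (fewest without replicate 2, most without replicate 4, both at 6 h) and 45 to 80 in the second (fewest without replicate 4, most without replicate 3, both at 18 h). Leaving out 12 h arrays gave, at 12 h, 2 to 3 called higher and 0 to 3 lower of the 24, and 1 to 3 higher and 6 to 13 lower of the 49. With the replicate number as a block (replicate block), the counts at 12 h stayed at 2, 3, 2 and 11. Of all genes, 3349 were then called. Same-numbered arrays of different times correlated at -0.15 to 0.38 in their deviations from the time mean, and different-numbered arrays at -0.43 to 0.33. These ranges overlap and do not settle whether the numbers pair arrays. The main fit did not pair them, and the block moved no count by over 1.5 times. In the 12 named genes called at 12 h, the call was lost in 39 of 168 checks (12 genes under 14 settings), and in the 26 that were not called one was gained in 11 of 364; no called value changed sign.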

Other observations

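CPIJ000489, a conserved hypothetical protein higher then lower, had the widest gap between times in the untreated channel of the 24, from 0.56 ± 0.21 (SD, n = 4) at 6 h to 5.41 ± 0.08 at 18 h, and its toxin level went from 1.22 ± 1.66 to 3.65 ± 1.65. CPIJ004731, the neighbour in number of the saturated gene CPIJ004730, had log2 ratios of 0.94, 0.50, 1.27 and -0.01 at 6 h and of -3.07, -3.19, -1.995 and -1.47 at 18 h, with untreated levels of 2.64 and 4.96 and toxin levels of 3.31 and 2.54.

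Among the 49 genes, 8 carry an identifier without a name. CPIJ017335 and CPIJ018647 had like values, with -1.30, -0.37, -2.92 and 0.71 and with -0.66, -0.24, -2.10 and 0.51 at 6 h, and with 1.53, 2.01, 1.48 and 1.31 and with 0.92, 2.24, 1.38 and 1.11 at 18 h. CPIJ000736, CPIJ004081 and CPIJ009378 had all 4 arrays below 0 at 6 h and above 0 at 18 h, and the mean of CPIJ000736 was already 0.68 at 12 h.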
